A study of Ovis aries with 16 samples.

Results

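Nucleus pulposus cells (NPC) of old sheep were compared with NPC of lambs, in the 8 of 16 libraries whose labels name NP cells. The 4 old libraries, O1 to O4, came from female sheep aged 7 to 8 years, and the 4 young ones, Y1 to Y4, from female lambs aged 6 months, each from a different animal of the Vendée breed. All 8 were untreated monolayer cultures of primary cells at passage 1, isolated with enzymes from lumbar discs and grown in medium with fetal bovine serum. The other 8 libraries of the series were annulus fibrosus cells (AFC) of the same 8 animals, and they entered the estimate of the spread between animals. The lambs were not skeletally mature and the old discs were mildly degenerated, so age, skeletal maturity and disc degeneration cannot be told apart.

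The nucleus pulposus is the gel-like core of the intervertebral disc, and its cells secrete an aggrecan and type II collagen matrix that holds water and bears load. With age the nucleus loses cells and water, its notochordal cells disappear, and its cells are described as more catabolic, inflammatory and senescent. Cells taken out of this matrix and expanded on plastic are known to drift towards a fibroblast-like state, so that a comparison in culture shows what remains of an age difference after expansion.

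The deposited counts list genes by Ensembl identifier of the Rambouillet sheep genome, and the symbol table used here matched 0 of the 30722 identifiers. Genes are therefore described by identifier, level and behaviour, and neither the nucleus markers that would check the cell type label nor markers of other cells could be examined. The totals of the 8 NPC libraries ranged from 28782526 counts in Y4 to 50874478 in Y3, with a median of 47621380.5. Neither total counts (exact permutation test over 70 relabellings, two-sided, p = 0.400) nor the number of genes with a read, 18219 to 19133 per library (exact permutation test, two-sided, p = 0.571), separated the ages beyond the spread between libraries. Levels are given as CPM, the count of a gene relative to its library size after TMM scaling, which corrects for differences in composition. A total of 15521 genes passed the low-count filter and held 99.97% of the NPC reads.

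Over all genes, the old library of O3 lay farthest from its group. The distance of a library to the mean of its age, on log2 CPM over all genes tested, was 51.3, 57.6, 49.5 and 51.7 in Y1 to Y4, and 58.5, 59.3, 74.5 and 56.0 in O1 to O4. O3 was the farthest, and the lowest old value, that of O4, lay below the young value of Y2. The mean distance was 62.1 ± 8.42 (SD, n = 4) in old and 52.5 ± 3.50 (SD, n = 4) in young NPC, a difference of 9.53 that missed the threshold (exact two-sided permutation, p = 0.0571, where 4 against 4 allow 0.0286 at the lowest). The relabelling moved fixed distances without new group means, so its p-values are only a rough guide to a difference in spread. Without O3 the difference was 2.97 (exact two-sided permutation, p = 0.200). Over the 500 most variable genes O3, at 35.1, was close to O4, at 35.0, so that O3 was not set apart on every measure. By the gap of a value to its nearest neighbour within a group of 4, 0 of 28 groups of values tested held an outlier. These groups included levels of single genes. With 4 values such a test finds only extreme gaps, so nothing about O3 is read from this count.

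**Figure D1:**
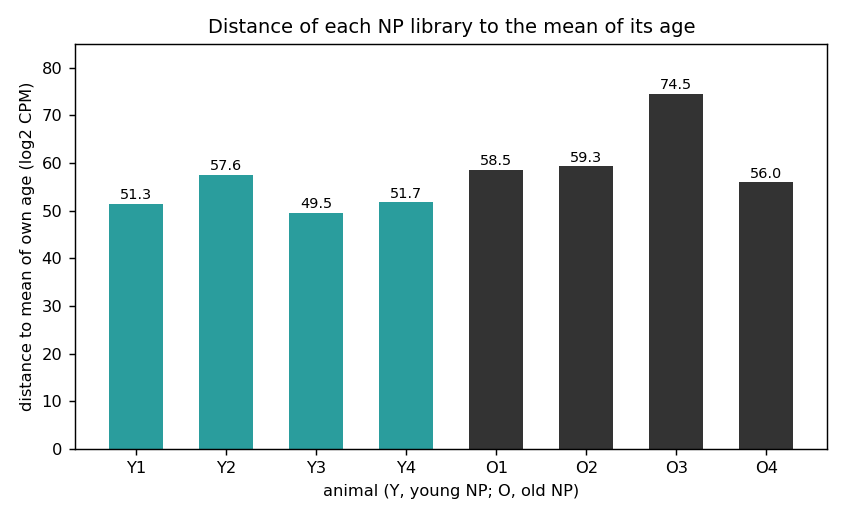
Bars give the distance of each NPC library to the mean of its own age, on log2 CPM over 15521 genes, with young animals in turquoise and old animals in black. O3 stands at 74.5, while the other 7 libraries lie between 49.5 and 59.3.

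The difference in the variation of single genes between animals also moved with O3. The median SD of a gene's log2 CPM was 0.21 in young and 0.29 in old NPC, and 10470 of the 15521 genes, or 67.5%, varied more in old than in young cells. Without O3 the median SD in old NPC was 0.21, and 49.4% of genes varied more in old cells. Leaving out O1, O2 or O4 in its place gave a median SD of 0.29, 0.28 and 0.29. With a library left out the SD rests on fewer old than young libraries, which tends to lower its median. This was not scaled for, so the 49.4% is not read as an equal spread. O3 held 41933700 counts, the lowest total of the old libraries but above that of Y4, and the part of depth in its position was not tested.

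Few genes were called between old and young NPC, and at 4 animals an age this does not show that few differed. The spread between animals was estimated over NPC and AFC together. Fitted for each group alone, its common coefficient of variation was 0.255 in young and 0.352 in old NPC. In young and old AFC it was 0.375 and 0.361. With edgeR's quasi-likelihood test and an adjusted p under 0.05, 2 of 15521 genes (0.0129%) were called, both lower in old cells. An unadjusted p under 0.05 was found for 1052 genes, or 6.78%, of which 482 were higher and 570 lower in old cells. This count was 571 without Y3 and 1535 without O3. DESeq2 on the same libraries and groups called 71 genes (0.457%), 27 higher (0.174%) and 44 lower (0.283%) in old cells, with the 2 edgeR genes among them. limma-voom called 0 genes, with 1030 at an unadjusted p under 0.05. Without O3, edgeR called 0 genes and DESeq2 called 197. In a bulk library, fewer cells that express a gene and less RNA per cell cannot be told apart.

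The median log2 fold change of all genes was 0.02, with a 5th percentile of -0.75 and a 95th of 0.66. A fitted change of 2-fold or more was found for 862 genes (5.55%), 370 higher and 492 lower in old cells. The data also bounded the change of most genes. For 10437 genes, or 67.2%, the 95% confidence interval of edgeR's fold change lay within 2-fold in both directions. Among the 8812 genes with a mean of at least 10 CPM in NPC this share was 88.7%, with a median standard error of 0.15 on the log2 scale. For genes of low level the intervals were wide, and a change of 2-fold was often not detectable at this depth and number of animals.

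**Figure D2:**
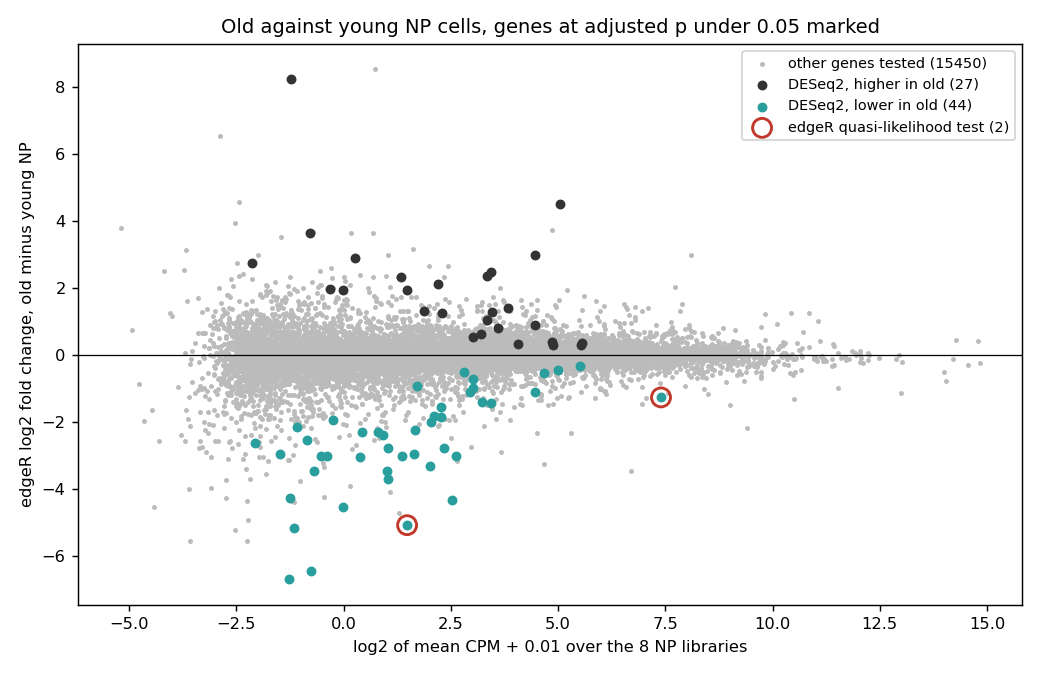
Each point is a gene, with its mean level over the 8 NPC libraries on a log2 axis and edgeR's log2 fold change of old minus young NPC. Black and turquoise points are the 27 and 44 genes called by DESeq2 at an adjusted p under 0.05, and the 2 red rings mark the genes called by edgeR, both below 0.

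ENSOARG00020016682 had the smallest p-value of all genes. It held 7.47, 4.11, 6.715 and 3.31 CPM in the young libraries Y1 to Y4 and 0.182, 0.0812, 0 and 0.360 CPM in the old libraries O1 to O4. All 4 old libraries were lower than all young ones, and the lowest young library held 9.20 times the level of the highest old one. The reads behind these levels numbered 949 over the young and 31 over the old libraries, so that the gene was present in 3 of the 4 old cultures and had no read in O3. The mean fell from 5.40 ± 2.00 (SD, n = 4) to 0.156 ± 0.155 CPM (SD, n = 4). The log2 fold change was -5.07 with a standard error of 0.72 and a 95% interval from -6.60 to -3.54 (adjusted p = 0.0376, edgeR's quasi-likelihood test). The interval spans a level 11.6 to 97.2 times lower in old cells. With an animal left out the log2 fold change stayed between -5.86 and -4.68, but the call was kept only without O4 (adjusted p = 0.0415 in edgeR's test). It was also lost on the 8 NPC libraries alone (adjusted p = 0.210 in edgeR's test) and in limma-voom (adjusted p = 0.163). Its mean level placed it at the 26.9th percentile of the genes tested.

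ENSOARG00020019782 differed less in fold but was abundant, at the 94.3rd percentile of level. Young libraries held 257, 222, 254 and 219 CPM, and old libraries 116, 77.9, 111.1 and 92.6 CPM. Each age kept to a narrow range, with the highest old library well below the lowest young one. The mean fell from 238 ± 20.7 (SD, n = 4) to 99.5 ± 17.6 CPM (SD, n = 4). The log2 fold change was -1.26 with a standard error of 0.18 and a 95% interval from -1.64 to -0.88 (adjusted p = 0.0376, edgeR's quasi-likelihood test), a level 1.83 to 3.12 times lower in old cells. Leaving out an animal kept the log2 fold change between -1.34 and -1.17, and the call only without O1 (adjusted p = 0.00223 in edgeR's test). The adjusted p was 0.0837 on the 8 NPC libraries alone in edgeR's test and 0.119 in limma-voom. The gene had the highest mean level among DESeq2's 71 calls.

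No gene was called higher in old NPC by edgeR, with 482 of that direction at an unadjusted p under 0.05, and the gene that came nearest was ENSOARG00020022045. It held 5.41, 2.73, 3.02 and 2.14 CPM in Y1 to Y4 and 14.8, 28.0, 9.94 and 15.6 CPM in O1 to O4. The ages did not overlap, O2 was the highest library, and O3 was the old library nearest to the young ones. Young cells averaged 3.33 ± 1.44 CPM (SD, n = 4) and old cells 17.1 ± 7.69 CPM (SD, n = 4). The fitted log2 difference was 2.36, its standard error 0.37 and its 95% interval 1.57 to 3.14. Its adjusted p was 0.0686 in edgeR's quasi-likelihood test and 3.7e-07 in DESeq2.

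ENSOARG00020000130 followed in that direction, with 0.855, 0.989, 0.844 and 0.641 CPM in the young libraries and 5.10, 7.11, 2.41 and 2.32 CPM in the old ones. Young levels were close to each other, while the old animals fell into a higher pair, O1 and O2, and a lower pair, O3 and O4, which still held over 2 times the highest young level. The means were 0.833 ± 0.144 and 4.23 ± 2.31 CPM (SD, n = 4 each). The log2 difference was 2.34, its standard error 0.41 and its 95% interval 1.46 to 3.21, with an adjusted p of 0.120 in edgeR's quasi-likelihood test and 2.9e-05 in DESeq2.

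**Figure D3:**
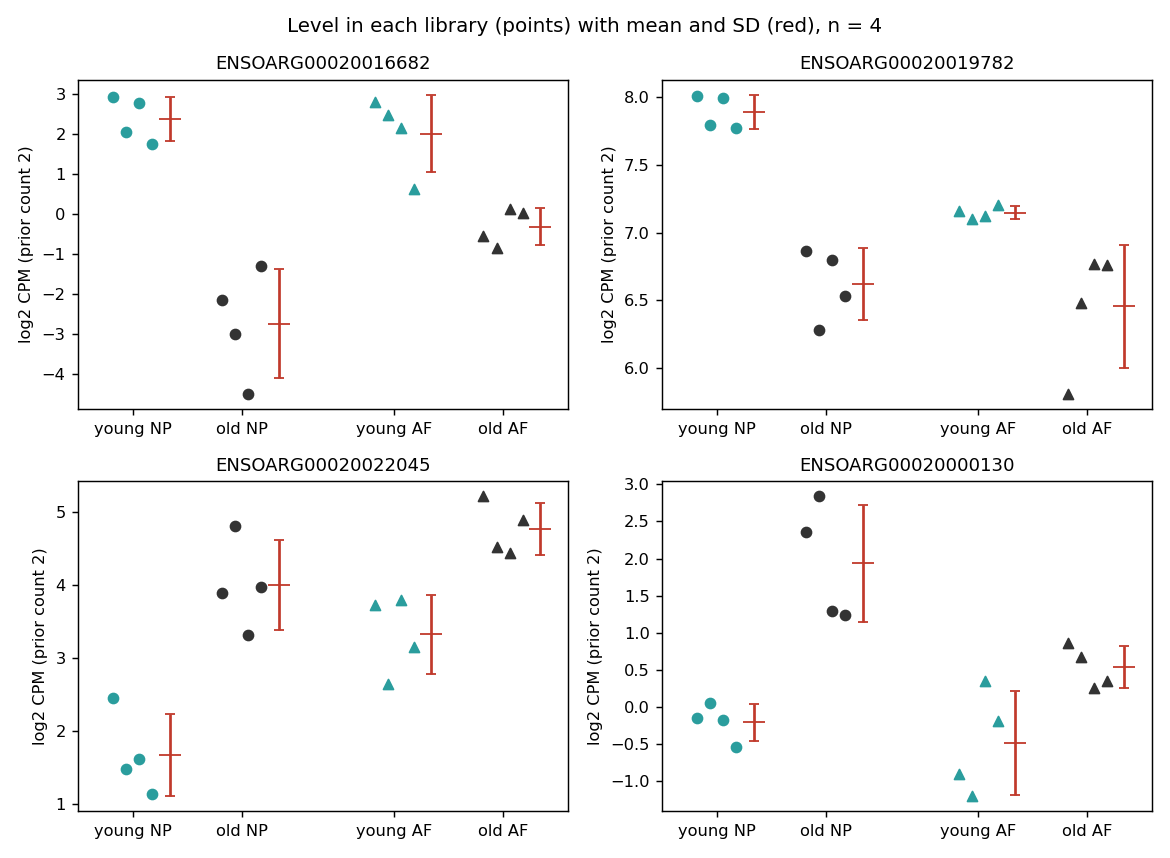
Points give the log2 CPM (prior count 2) of 4 genes in each library, with circles for NPC, triangles for AFC, turquoise for young and black for old animals, and red bars for the mean and SD of 4 libraries. Old and young circles do not overlap for any of the 4 genes, and the lowest circle of ENSOARG00020016682, O3, had no read.

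In AFC of the same animals these 4 genes had smaller fitted age differences. The log2 fold changes of old minus young AFC were -2.52 (standard error 0.62) for ENSOARG00020016682, -0.64 (standard error 0.18) for ENSOARG00020019782, 1.41 (standard error 0.35) for ENSOARG00020022045 and 0.96 (standard error 0.40) for ENSOARG00020000130. None passed edgeR's threshold in AFC, with adjusted p-values from 0.209 to 0.467, while DESeq2's adjusted p in AFC was 0.0018 for ENSOARG00020016682, 0.049 for ENSOARG00020019782, 0.014 for ENSOARG00020022045 and 0.311 for ENSOARG00020000130, so that 3 of the 4 passed there, beside 225 of all genes (1.45%). The 4 were chosen for their difference in NPC, a choice that favours larger values in NPC. The differences between tissues, tested as an interaction in edgeR, were -2.55 (standard error 0.88), -0.62 (standard error 0.25), 0.95 (standard error 0.49) and 1.38 (standard error 0.56) in the same order, all with an adjusted p of 0.999. Levels in AFC stood beside those in NPC as follows. Young AFC held 142 ± 4.57 CPM (SD, n = 4) of ENSOARG00020019782 against 238 in young NPC, and old AFC 90.8 ± 24.9 CPM (SD, n = 4) against 99.5 in old NPC. For ENSOARG00020022045 young AFC held 10.5 ± 3.63 CPM (SD, n = 4) and old AFC 27.8 ± 7.08 CPM (SD, n = 4), against 3.33 and 17.1 in NPC.

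Over all genes, edgeR called 0 interactions of age and tissue, with 683 genes (4.4%) at an unadjusted p under 0.05 and a smallest adjusted p of 0.999, and limma-voom called 0. DESeq2 called 5 genes (0.0322%). The 683 genes at an unadjusted p became 326 without Y3, 432 without Y4 and 1067 without O2. An age difference particular to NPC was therefore not shown for any gene by edgeR or limma-voom, and DESeq2's 5 calls included 1 of the 71 genes it called between old and young NPC, a gene lower in old cells. Of those 71, 11 of the 44 lower and 10 of the 27 higher genes had an unadjusted edgeR p under 0.05 for the interaction, beside 4.4% of all genes. The interaction contains the NPC difference these genes were chosen for, so nothing is read from these counts.

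The 44 genes that DESeq2 called lower in old NPC were mostly large changes of genes at a low level. Their log2 fold changes in edgeR's fit ran from -6.68 to -0.33 with a median of -2.46, and 27 were at least 4-fold, 10 between 2-fold and 4-fold and 7 under 2-fold. Their median level was 4.87 CPM in young and 0.596 CPM in old cells, and 25 of them averaged under 1 CPM in old cells. In 41 of the 44 all old libraries lay below all young ones, beside 2.39% of all genes, and nothing is read from this count, since the genes were called on the same 8 libraries. In 6 of them a single lamb held over 50% of the summed young level. edgeR's adjusted p for these genes had a median of 0.346.

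The 27 genes called higher in old NPC were smaller changes at a higher level. Their median log2 fold change was 1.42, with 10 at least 4-fold, 8 between 2-fold and 4-fold and 9 under 2-fold. Among the 26 with a read in young cells the log2 fold changes ran from 0.29 to 4.50. Their median level was 3.33 CPM in young and 13.7 CPM in old cells, and the most abundant held 63.3 CPM in old cells. In 25 of the 27 all old libraries lay above all young ones, beside 2.33% of all genes, a count that follows from the same choice. In 3 of them a single old animal held over 50% of the summed old level. edgeR's adjusted p had a median of 0.378.

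A single called gene had no read in the 4 young NPC libraries, and it held 22, 71, 5 and 66 reads in O1 to O4. Set against 3 reads over the young group, the floor used for a count of 0, it was at least 48.2-fold higher in old NPC, and the median of the 27 genes stayed at 1.42 with this gene at its bound. In AFC it had 5, 0, 2 and 7 reads in Y1 to Y4 and 88, 17, 38 and 63 in O1 to O4, so that it was not absent from all young cultures. Among the 44 genes called lower in old NPC, 2 had at most 3 reads over the old NPC libraries, so that their fold changes rest on few reads. Over the whole table, 0 genes had at least 10 reads in every NPC library of an age and at most 3 reads over the NPC libraries of the other. A complete gain or loss of a clearly expressed gene with age was thus not seen in these cultures.

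The direction of DESeq2's calls was uneven over levels, a description that was not tested. Of the 51 called genes with a mean under 10 CPM in NPC, 13 were higher and 38 lower in old cells, and of the 20 at 10 CPM or more, 14 were higher and 6 lower. By level, DESeq2 called 0.649% of the 2774 genes under 1 CPM, 0.839% of the 3935 from 1 to 10 CPM, 0.264% of the 7207 from 10 to 100 CPM, 0.0661% of the 1514 from 100 to 1000 CPM and 0 of the 91 above. Shares with an unadjusted edgeR p under 0.05 varied less over the same levels, at 7.93%, 7.34%, 6.12%, 6.47% and 4.4%.

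The 100 genes of the highest level held 36.7% of the CPM in NPC. Their log2 fold changes lay between -1.32 and 1.27, and 6 were at least 2-fold, beside 5.55% of all genes. An unadjusted edgeR p under 0.05 was found for 4, beside 6.78% of all genes, and 0 were called by edgeR or DESeq2, beside 0.0129% and 0.457%. These counts were near the shares over all genes. For 72 of the 100 the 95% interval lay within 2-fold in both directions.

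The called genes were also followed through each library, as the median of log2 CPM minus the young NPC mean. For the 44 genes lower in old cells it was 0.17, -0.28, 0.25 and -0.09 in Y1 to Y4, and -2.12, -2.14, -2.12 and -1.70 in O1 to O4. O1, O2 and O3 were nearly alike here although O3 was the farthest library over all genes, and O4 was the least changed. O4 was the old library nearest to the young ones in 18 of the 44 genes and O3 in 15. For the 27 genes higher in old cells the medians were 0, 0.07, -0.02 and -0.01 in the lambs and 1.38, 1.503, 1.16 and 1.22 in O1 to O4. O2 was the highest old library in 17 of the 27 and O3 the lowest in 13. These genes were chosen on the same libraries, and the values describe how they vary between animals.

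**Figure D4:**
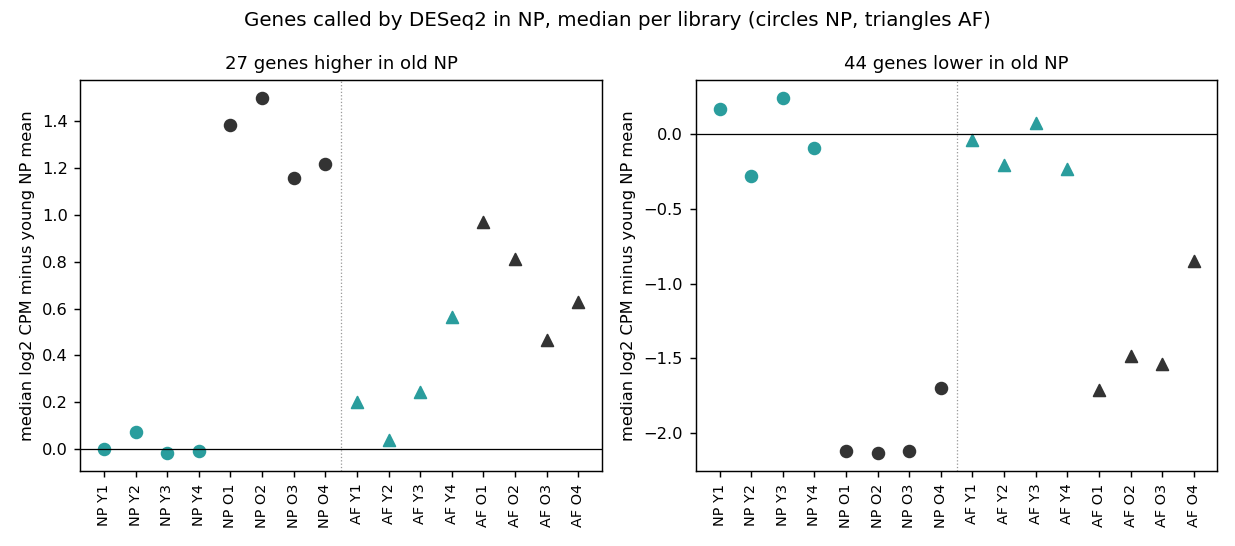
Each point is the median over genes of log2 CPM minus the young NPC mean in a library, for the 27 genes called higher (left) and the 44 called lower (right) in old NPC by DESeq2, with circles for NPC, triangles for AFC, turquoise for young and black for old animals. Old NPC lie between 1.16 and 1.503 on the left and between -2.14 and -1.70 on the right, and old AFC, whose animals are the same, between 0.47 and 0.97 and between -1.71 and -0.85.

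In AFC the same 44 genes had medians of -0.04, -0.20, 0.08 and -0.23 in Y1 to Y4 and of -1.71, -1.49, -1.54 and -0.85 in O1 to O4. The 27 genes had medians of 0.20, 0.04, 0.24 and 0.56 in young AFC and of 0.97, 0.81, 0.47 and 0.63 in old AFC, where O3 lay below Y4 and the ages overlapped. AFC came from the same animals and their libraries entered the fit that chose these genes, so they are not independent of the NPC comparison. The fitted log2 fold changes in AFC had a median of -1.52 for the 44 and 0.72 for the 27 genes, beside 0.02 over all genes tested.

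Genes whose 4 old and 4 young NPC libraries did not overlap numbered 733, or 4.72% of those tested. Of these, 362 (2.33%) were higher and 371 (2.39%) lower in old cells. Most were small differences, and 276 of the higher and 197 of the lower genes were under 1.5-fold. With library totals in place of TMM factors, 435 were higher and 301 lower, so that the even balance over all sizes depended on the scaling. At 2-fold or more, on mean log2 CPM, TMM factors gave 49 higher and 108 lower and library totals gave 52 and 105. Genes in which the lowest library of the higher age had at least 1 CPM and at least 2 times the highest library of the other age numbered 3 higher and 9 lower in old cells. DESeq2 called 1 and 7 of them, beside 0.174% and 0.283% of all genes. They were picked for a gap on the same libraries, so nothing is read from these calls.

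The study lists leading genes for co-expression modules tied to age. Only 6 of its 60 Cyan and Green entries and 2 of its 30 Pink entries carry the identifier used in the files, so the modules as a whole were not examined. The study chose these lists on the same libraries, so they are not independent evidence of direction. All 6 such identifiers of the Cyan and Green modules, tied to young animals, had negative log2 fold changes in NPC with a median of -0.52, and both of the Pink module, tied to old animals, had positive ones with a median of 1.06, beside a median of 0.02 over all genes. The first median moved to -0.32 without O1 and to -0.34 without Y3. Old and young NPC overlapped in each of these 8 genes, where 4.72% of all genes did not overlap. By edgeR and DESeq2 0 were called, beside 0.0129% and 0.457% of all genes, and 2 had an unadjusted edgeR p under 0.05, beside 6.78%. With 8 genes, the counts of 0 say nothing particular about them. Their mean levels lay between 7.76 and 65.8 CPM.

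The calls depended on single animals. DESeq2 called 31 genes without Y3, 120 without Y2, 128 without O4 and 197 without O3, and between 53 and 79 without Y1, Y4, O1 or O2. Of its 71 genes, 22 were called whichever of the 8 animals was left out, 9 higher and 13 lower in old cells. The 4 genes described by identifier, which were chosen for small p-values on the same libraries, were among these. Without O3, 62 of the 71 were among the 197 calls, and without Y3, 29 were among the 31. edgeR called 0 genes without Y3, Y4, O2 or O3, 1 without Y1 or O1, 2 without Y2 and 5 without O4. On the 8 NPC libraries alone edgeR called 1 gene, which was neither ENSOARG00020016682 nor ENSOARG00020019782, and DESeq2 called 170.

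**Figure D5:**
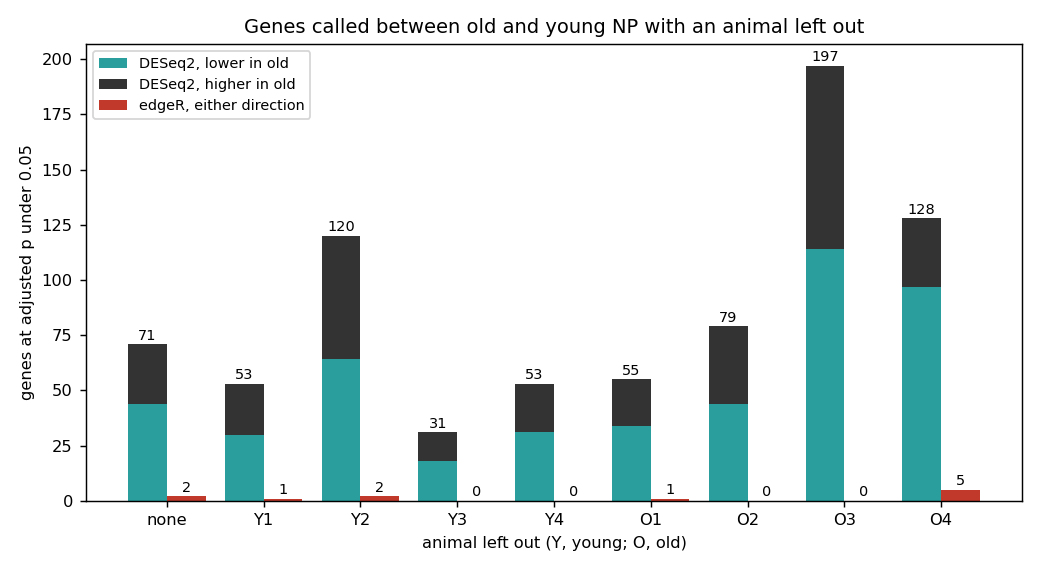
Bars give the number of genes at an adjusted p under 0.05 between old and young NPC, with all animals (none) and with both libraries of the named animal left out. DESeq2's count, lower in old in turquoise and higher in old in black, ranges from 31 without Y3 to 197 without O3, and edgeR's count in red from 0 to 5.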

How the data were processed

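RNA from NPC and AFC of 4 young and 4 old sheep was sequenced as stranded mRNA libraries. The authors used STAR and the Rambouillet assembly ARS-UI_Ramb_v2.0 (Ensembl 111), and deposited raw counts per Ensembl gene that include genes without a read. The submitters' processing notes list FastQC 0.11.8, fastp, STAR 2.7.10b and HTSeq 2.0.3. The strand setting is not given in the sources used here, so genes that overlap on opposite strands are less certain. Animals were numbered in the order of their identifiers. No 2 NPC libraries of an age were repeats, and their chi-square statistics over genes were 52.3 to 292 times the degrees of freedom. Other pairs of libraries were not checked.

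The count tests ran under R 4.3.3 in edgeR 4.0.16 (filterByExpr, TMM, quasi-likelihood test on 4 groups, Benjamini-Hochberg adjustment, threshold 0.05), DESeq2 1.42.0 and limma 3.58.1. Standard errors came from the size of the fold change divided by the root of its F statistic. The steps were tested on simulated data. Ages were different animals and so were not paired. Both tissues shared animals by the labels, and the animal as a block was an alternative. Symbols were sought in a table for ARS-UI_Ramb_v3.0. Genes given by identifier were those with the smallest edgeR p, at most 2 in each direction. Lists fixed by symbol could not be applied. The comparison, lists and tests were chosen with earlier results of these data known.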

Additional observations from a re-analysis of the deposited data

How the results depend on the processing

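The number of genes called between old and young NPC, 2 in edgeR, was 71 with DESeq2, 170 with DESeq2 on the 8 NPC libraries, 110 with DESeq2 at an adjusted p under 0.1 and an absolute log2 fold change over 0.3, 1 with edgeR on the 8 NPC libraries and 0 with limma-voom. With the animal as a replicate block in limma-voom, where both libraries of an animal had a consensus correlation of 0.0529, it was also 0. RLE scaling, no low-count filter and a mean count of at least 50 kept both genes, and an adjusted p under 0.1 added 1. Thinning every library to 28782526 counts, chosen after the data were examined, gave 4 genes with edgeR and 60 with DESeq2. With an animal left out the count ranged from 0 to 5 with edgeR and from 31 to 197 with DESeq2, the latter also added after the data were examined. The interaction of age and tissue gave 0 genes in edgeR and in limma-voom, each with and without the replicate block, 0 in edgeR without the block whichever animal was left out, and 5 in DESeq2. The difference in distance to the group mean ranged from 2.97 without O3 to 12.6 without O4, where it passed (exact permutation test, two-sided, p = 0.0286), with distances scaled for the number of libraries and kept fixed over the relabellings. For the 4 genes given by identifier, all 64 alternative values kept their direction, 20 lost and 4 gained an adjusted p under 0.05. These genes were chosen for small p-values and their old and young NPC libraries did not overlap, so nothing is read from the kept direction. The cause of the changes with processing was not tested. With 4 animals an age, the change was bounded within 2-fold for 12.0% of genes under 1 CPM and 58.1% of those from 1 to 10 CPM.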
